A study of Mus musculus with 6 samples.

Results

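Fmo2, Inmt, Plcxd3, 1700019D03Rik and Sntg1 are 5 of the 30406 genes listed in all 6 single-nucleus RNA-seq libraries of the mouse tibial periosteum before and after fracture. They were chosen by their measured counts, because stromal nuclei of the uninjured periosteum held them and stromal nuclei at day 3 after fracture held almost none. The day 3 values of the stroma are therefore given below as a description and were not tested, and the levels of the uninjured populations likewise carry no test, whereas the endothelial nuclei and days 5 and 7 were not part of the choice. In the uninjured periosteum no single population was the highest for all 5 genes. Fmo2 was highest in endothelial-like nuclei and next in fibroblast-like nuclei, Inmt in fibroblast-like nuclei, Plcxd3 in SSPC-like and fibroblast-like nuclei, 1700019D03Rik in SSPC-like nuclei, and Sntg1 in nerve sheath-like nuclei. At day 7 the stromal level of Fmo2, Inmt, Plcxd3 and 1700019D03Rik was 0 to 0.677% of the uninjured mean, and that of Sntg1 was 19.4%. The uninjured Sntg1 level rested partly on single nuclei.

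All mice were C57BL6 (C57BL/6ScNj in the methods), 12 weeks old, and both sexes were used in each group as the methods describe. Uninjured periosteum gave 2 libraries, each from tibias pooled from 4 mice, day 3 after a tibial fracture gave 2 libraries, and days 5 and 7 gave 1 library each, with 4 to 9 mice pooled for an injured library. The uninjured samples are scraped periosteum of bones whose marrow was flushed out, and the injured samples hold the activated periosteum together with the hematoma, so the dissected tissue differs between the groups as well as the time. Nuclei were sorted and sequenced with the 10x Genomics 3' chemistry, and the deposited values are raw counts of UMIs (unique molecular identifiers, 1 per captured transcript) from intronic and exonic reads. A library is a pool, so an SD or p-value measures the spread between libraries and not between mice.

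The 5 genes have separate functions. Fmo2 encodes a flavin-containing monooxygenase, an enzyme that adds oxygen to nitrogen or sulphur atoms of small molecules and is best known from the lung. Inmt encodes indolethylamine N-methyltransferase, which moves a methyl group from S-adenosylmethionine to tryptamine and related compounds. Plcxd3 encodes a protein with the X domain of the phosphatidylinositol-specific phospholipases C. 1700019D03Rik encodes a small membrane-bound A-kinase anchoring protein, a tether for protein kinase A. Sntg1 encodes gamma-1 syntrophin, an adaptor of the dystrophin complex known mainly from neurons. In the uninjured periosteum, SSPCs (skeletal stem/progenitor cells, marked by Pi16) lie beside fibroblasts, and after fracture stromal cells take on a matrix-producing state called injury-induced fibrogenic cells (IIFCs) before cartilage and bone form.

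All 5 genes are protein coding and lie on GRCm38 as annotated by GENCODE M21. Fmo2 (ENSMUSG00000040170) spans chr1:162874317-162898726 on the minus strand with 9 exons in 24.41 kb. Inmt (ENSMUSG00000003477) is the most compact, with 3 exons in 4.418 kb at chr6:55170626-55175043 on the minus strand. Plcxd3 (ENSMUSG00000049148) has 4 exons across 200.063 kb at chr15:4375491-4575553 on the plus strand. 1700019D03Rik (ENSMUSG00000043629) covers chr1:52922324-53020179 on the minus strand with 9 exons in 97.856 kb. Sntg1 (ENSMUSG00000025909) is the longest, 938.404 kb with 24 exons at chr1:8361475-9299878 on the minus strand, and 14 other annotated genes overlap it, none of which is listed in the deposited matrices. Intronic reads were counted, so a long gene offers more positions for capture, and levels are compared between genes below only per kb.

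The 250 bases before an annotated start are shown for one start of each of the 4 genes that matched the RefSeq promoter sequences (GRCm38.p6), so that the starts of the genes can be set side by side. Fmo2 has 2 annotated starts and 1700019D03Rik has 7, and the window shown for each is the single one of its windows that holds AGAACA, chosen after the motifs were searched. They run 5′ to 3′ on the strand of the gene, and capitals mark a match to one of 6 motifs searched on both strands (the TATA box TATAAA, the CAAT box CCAAT, the E-box CACGTG, the AP-1 site TGACTCA, the steroid receptor element AGAACA and the PAR bZIP site TTATGTAA, none of which holds another). The windows are Fmo2 chr1:162898494-162898743 (minus strand), Inmt chr6:55174991-55175240 (minus), Plcxd3 chr15:4375241-4375490 (plus) and 1700019D03Rik chr1:52992658-52992907 (minus).
Fmo2: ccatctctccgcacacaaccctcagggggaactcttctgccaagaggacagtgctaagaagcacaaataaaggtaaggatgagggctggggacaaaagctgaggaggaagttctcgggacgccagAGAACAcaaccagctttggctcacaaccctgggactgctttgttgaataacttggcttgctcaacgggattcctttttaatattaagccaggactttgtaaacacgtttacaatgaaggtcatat
Inmt: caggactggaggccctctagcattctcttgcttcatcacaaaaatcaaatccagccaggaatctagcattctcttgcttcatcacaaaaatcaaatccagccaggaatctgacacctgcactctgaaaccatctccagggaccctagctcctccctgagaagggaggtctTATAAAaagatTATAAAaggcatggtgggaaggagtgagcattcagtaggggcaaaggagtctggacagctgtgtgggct
Plcxd3: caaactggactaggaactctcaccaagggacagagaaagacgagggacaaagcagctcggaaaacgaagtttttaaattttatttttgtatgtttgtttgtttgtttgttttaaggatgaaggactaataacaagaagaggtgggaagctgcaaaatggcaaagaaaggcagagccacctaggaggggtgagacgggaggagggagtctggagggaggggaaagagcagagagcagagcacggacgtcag
1700019D03Rik: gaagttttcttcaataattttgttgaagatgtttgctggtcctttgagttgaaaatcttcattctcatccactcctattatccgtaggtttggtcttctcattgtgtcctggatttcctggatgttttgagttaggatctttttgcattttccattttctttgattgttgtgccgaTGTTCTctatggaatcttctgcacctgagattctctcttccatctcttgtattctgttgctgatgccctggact
The capitals in Fmo2 are AGAACA, 125 bases before the start, and those in 1700019D03Rik are the same motif on the opposite strand (TGTTCT), 74 bases before the start. Inmt has TATAAA at 80 and at 69 bases before the start, and the Plcxd3 window has none of the 6 motifs. Over all 11 RefSeq starts of these genes, 2 windows held AGAACA, 4 held CCAAT, 1 held TATAAA and none held the other motifs. Among 32851 promoter windows of the same length, AGAACA was present in 16.1%, CCAAT in 33.8%, TATAAA in 12.4%, CACGTG in 6.02%, TGACTCA in 4.46% and TTATGTAA in 0.819%. A match is a run of letters and was not tested as a binding site.

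The 6 matrices held 13551 barcodes with 55293921 UMIs, from 1499281 to 29796296 per library, and median UMIs per barcode ranged from 892 (day 7) to 2806 (day 5). After limits on genes and on mitochondrial and ribosomal UMIs, 8067 nuclei were kept, and myogenic nuclei were then removed. Day 3 replicate 2 and day 7 lost most barcodes to these limits (1723 of 4712 and 1351 of 3448 kept). Clusters were named from marker genes with the ending "-like", since rebuilt populations need not hold the study's own nuclei. The stroma is the sum of SSPC-, fibroblast-, IIFC-, osteoblast- and chondrocyte-like nuclei, 88 and 283 nuclei in the uninjured replicates, 113 and 269 in the day 3 replicates, 1069 in the day 5 library and 795 in the day 7 library. Doublets marked by Scrublet were kept (0 to 3.92% of nuclei per library, too few in several libraries for the caller to have worked), and no pair of libraries shared more than 7 barcodes. Levels are CPM (counts per 1000000, the UMIs of a gene relative to all UMIs of the nuclei concerned), and intervals are exact 95% Poisson intervals of the counts, which cover counting error only.

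The first comparison asked which uninjured population held each gene. Fmo2 was highest in endothelial-like nuclei, at 601 CPM [530 to 680] in replicate 1 and 468 CPM [430 to 509] in replicate 2 (253 UMIs in 78 of 212 nuclei and 553 UMIs in 111 of 256). Fibroblast-like nuclei followed at 504 CPM [357 to 692] and 289 CPM [251 to 331], from 38 and 208 UMIs. The mean was 535 ± 94.0 CPM (SD, n = 2 libraries) in endothelial-like and 396 ± 152 CPM in fibroblast-like nuclei, and these ranges overlap. Of the 7 populations with at least 20 nuclei in both replicates, which alone were ranked, the others were below, with nerve sheath-like nuclei at 108 and 20.9 CPM and SSPC-like nuclei at 0 and 1 UMI. Tendon-like nuclei, too few in replicate 1 to be ranked, had 148 CPM from 1 UMI and 116 CPM from 25 UMIs, 21 of them in 1 nucleus. Endothelial-like nuclei were 34.6% of the uninjured nuclei and held 71.8% [exact 95% binomial interval 69.0 to 74.4] of the 1123 Fmo2 UMIs. After each nucleus was thinned to 500 UMIs, Fmo2 was found in 16.7% of endothelial-like nuclei, 12.6% of fibroblast-like nuclei and none of the 124 pericyte/SMC-like nuclei, a population with a comparable median depth (2956.5 UMIs against 2359 and 2204) that held 6 Fmo2 UMIs before thinning. Most Fmo2 of the uninjured periosteum was thus counted outside the stroma.

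Inmt was concentrated in the fibroblast-like nuclei, at 225 CPM [131 to 361] and 84.6 CPM [64.7 to 109] (17 UMIs in 6 nuclei and 61 UMIs in 19 nuclei), with a mean of 155 ± 99.5 CPM (SD, n = 2). These nuclei held 83.0% [73.8 to 89.9] of the 94 uninjured Inmt UMIs. Immune-like nuclei reached 117 and 10.3 CPM from 2 and 3 UMIs, so their range overlaps that of the fibroblast-like nuclei on very few counts. SSPC-like nuclei had 25.2 and 14.6 CPM, and endothelial-like nuclei, which were rich in the other small-molecule enzyme Fmo2, had 1 UMI in replicate 1 and none in replicate 2.

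Plcxd3 was shared between SSPC-like and fibroblast-like nuclei. The SSPC-like nuclei had 126 CPM [40.9 to 294] and 554 CPM [478 to 639], and the fibroblast-like nuclei 159 CPM [82.2 to 278] and 461 CPM [412 to 513]. The 2 populations did not differ beyond the spread between libraries, at means of 340 ± 303 and 310 ± 213 CPM (SD, n = 2). Nerve sheath-like nuclei came next among the ranked populations, at 21.6 and 20.9 CPM, below both. Counts within single nuclei were uneven, with up to 36 UMIs in 1 SSPC-like nucleus. Thinned to 500 UMIs, 17.9% of SSPC-like and 10.5% of fibroblast-like nuclei held Plcxd3, against 0.806% of pericyte/SMC-like nuclei.

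1700019D03Rik, the kinase anchor, was highest in the SSPC-like nuclei, the population marked by Pi16. SSPC-like nuclei had 101 CPM [27.5 to 258] and 96.3 CPM [66.3 to 135], from 4 UMIs in 2 nuclei and 33 UMIs in 15 nuclei, and fibroblast-like nuclei had 66.3 and 30.5 CPM. The means were 98.6 ± 3.23 and 48.4 ± 25.3 CPM (SD, n = 2), and the SSPC-like values lay above the fibroblast-like values, which lay above the other ranked populations, at most 8.17 CPM. Of the populations too small to be ranked, the IIFC-like nuclei of replicate 2 had 33.8 CPM from 1 UMI and the tendon-like nuclei 9.31 CPM from 2. SSPC-like nuclei held 37 of its 74 uninjured UMIs [38.1 to 61.9%] and fibroblast-like nuclei 36.5%. Counts were low enough that thinning to 500 UMIs left no SSPC-like nucleus of 84 with the gene, and thinning to 1000 UMIs left 5.26% of 76.

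Among the ranked populations Sntg1 was highest in nerve sheath-like nuclei (expressing Luzp2, Cldn1 and Slc2a1), which are not counted in the stroma. They had 249 CPM [158 to 373] and 157 CPM [106 to 224], from 23 UMIs in 7 of 34 nuclei and 30 UMIs in 8 of 34, with a mean of 203 ± 65.0 CPM (SD, n = 2). They were 5.02% of the uninjured nuclei and held 29.9% [23.3 to 37.3] of the 177 Sntg1 UMIs. The stromal Sntg1 counts rested partly on single nuclei, since 1 fibroblast-like nucleus gave 12 of the 15 UMIs of replicate 1 and 1 SSPC-like nucleus gave 31 of the 49 UMIs of replicate 2. SSPC-like nuclei had 50.4 and 143 CPM and fibroblast-like nuclei 199 and 9.71 CPM, and the ranges of these populations and of the nerve sheath-like nuclei overlapped. A group of 75 shallow nuclei of replicate 2 (median 613 UMIs) whose cluster could not be named is in no population, although its UMIs and nuclei count in the uninjured totals. It had 174 CPM [89.7 to 303] of Sntg1, from 12 UMIs in 8 nuclei, which is within the interval of the nerve sheath-like nuclei of that replicate, so the order holds for named populations alone. It also held 8 Fmo2 and 2 Plcxd3 UMIs.

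**Figure D1:**
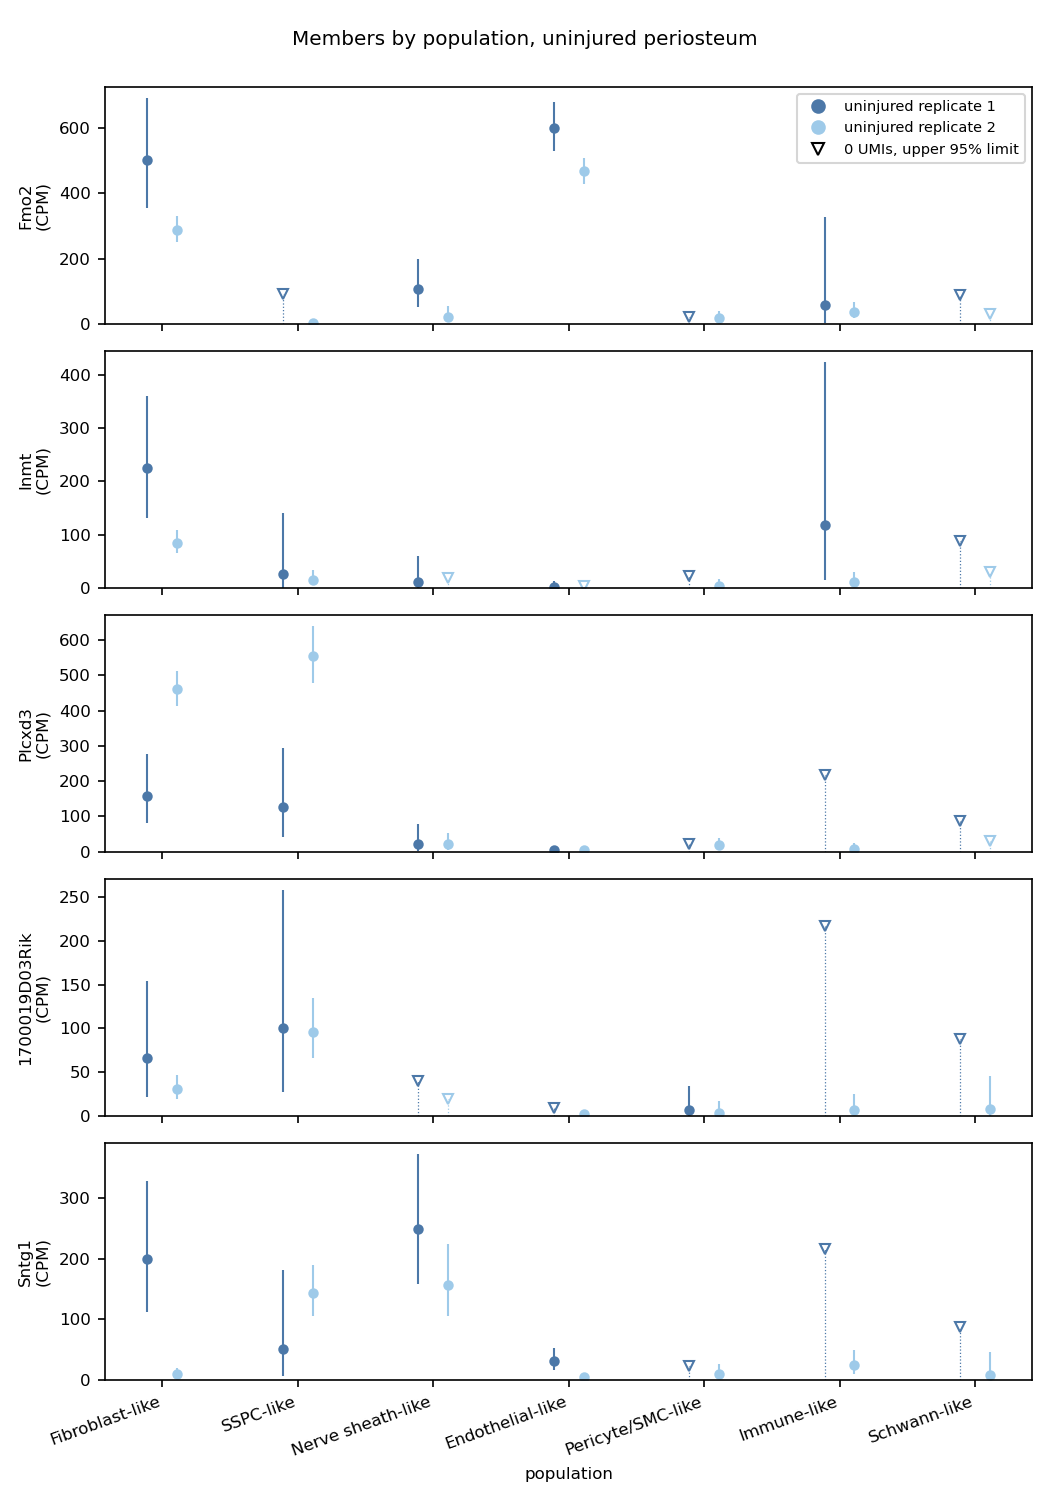
Level of each gene (CPM, vertical axis) in 7 uninjured populations (horizontal axis) in the 2 uninjured libraries; each point is the sum over the nuclei of one population in one library, bars are exact 95% Poisson intervals and open triangles are upper limits where no UMI was counted. Fmo2 stands highest in endothelial-like nuclei (601 and 468 CPM), Inmt in fibroblast-like nuclei (225 and 84.6 CPM), and Sntg1 in nerve sheath-like nuclei (249 and 157 CPM).

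Between genes, levels can be set side by side per kb of exon. In its highest population Inmt had 96.9 CPM per exonic kb, Fmo2 95.4, Plcxd3 67.5, 1700019D03Rik 22.8 and Sntg1 18.6. Per kb of the whole gene, introns included, the levels were 35.1 for Inmt, 21.9 for Fmo2, 1.70 for Plcxd3, 1.01 for 1700019D03Rik and 0.216 for Sntg1. The order of these means was the same on both scales, with Inmt, the most compact gene, at the top and Sntg1, the longest, at the bottom. The uninjured libraries differed widely, with means ± SD of 155 ± 99.5 CPM for Inmt, 535 ± 94.0 for Fmo2, 340 ± 303 for Plcxd3 and 203 ± 65.0 for Sntg1. The order of Inmt and Fmo2 and the place of Plcxd3 are therefore not settled on either scale. Nor is the order of 1700019D03Rik and Sntg1 per exonic kb.

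When the uninjured stromal nuclei and the tendon- and nerve sheath-like nuclei were clustered by themselves, 6 subclusters were found. Each is called by the marker from a fixed list whose level was highest in it. That marker need not lead the subcluster, since the Hsd11b1+ nuclei had 109.6 CPM of Hsd11b1 and 2019.6 CPM of Reln. The Csmd1+ subcluster (230 nuclei, mostly fibroblast-like) held 271 Fmo2 UMIs at 607 and 274 CPM, whereas the Pi16+ subcluster (93 nuclei, mostly SSPC-like) held 1. The Cldn1+ nuclei had 232 CPM [100 to 457] of Fmo2 from 8 UMIs in replicate 1 and 25.6 CPM from 3 in replicate 2. Inmt was likewise higher in Csmd1+ than in Pi16+ nuclei, with 265 and 71.9 CPM against 20.9 and 13.4 CPM. 1700019D03Rik had the opposite order, with 125 and 118 CPM in Pi16+ nuclei, 46.7 and 16.5 CPM in Csmd1+ nuclei and no UMI in the other 4 subclusters. Plcxd3 was present in both, at 125 and 569 CPM in Pi16+ and 171 and 384 CPM in Csmd1+ nuclei. Sntg1 was highest in the 42 Luzp2+ nuclei, at 412 and 311 CPM from 52 UMIs in 14 nuclei, and had at most 25.6 CPM in the Cldn1+ nuclei, the other nerve sheath-like subcluster. The 5 genes were left out of the genes used for clustering, but subclusters come from these same nuclei, so their contrasts are a description.

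**Figure D2:**
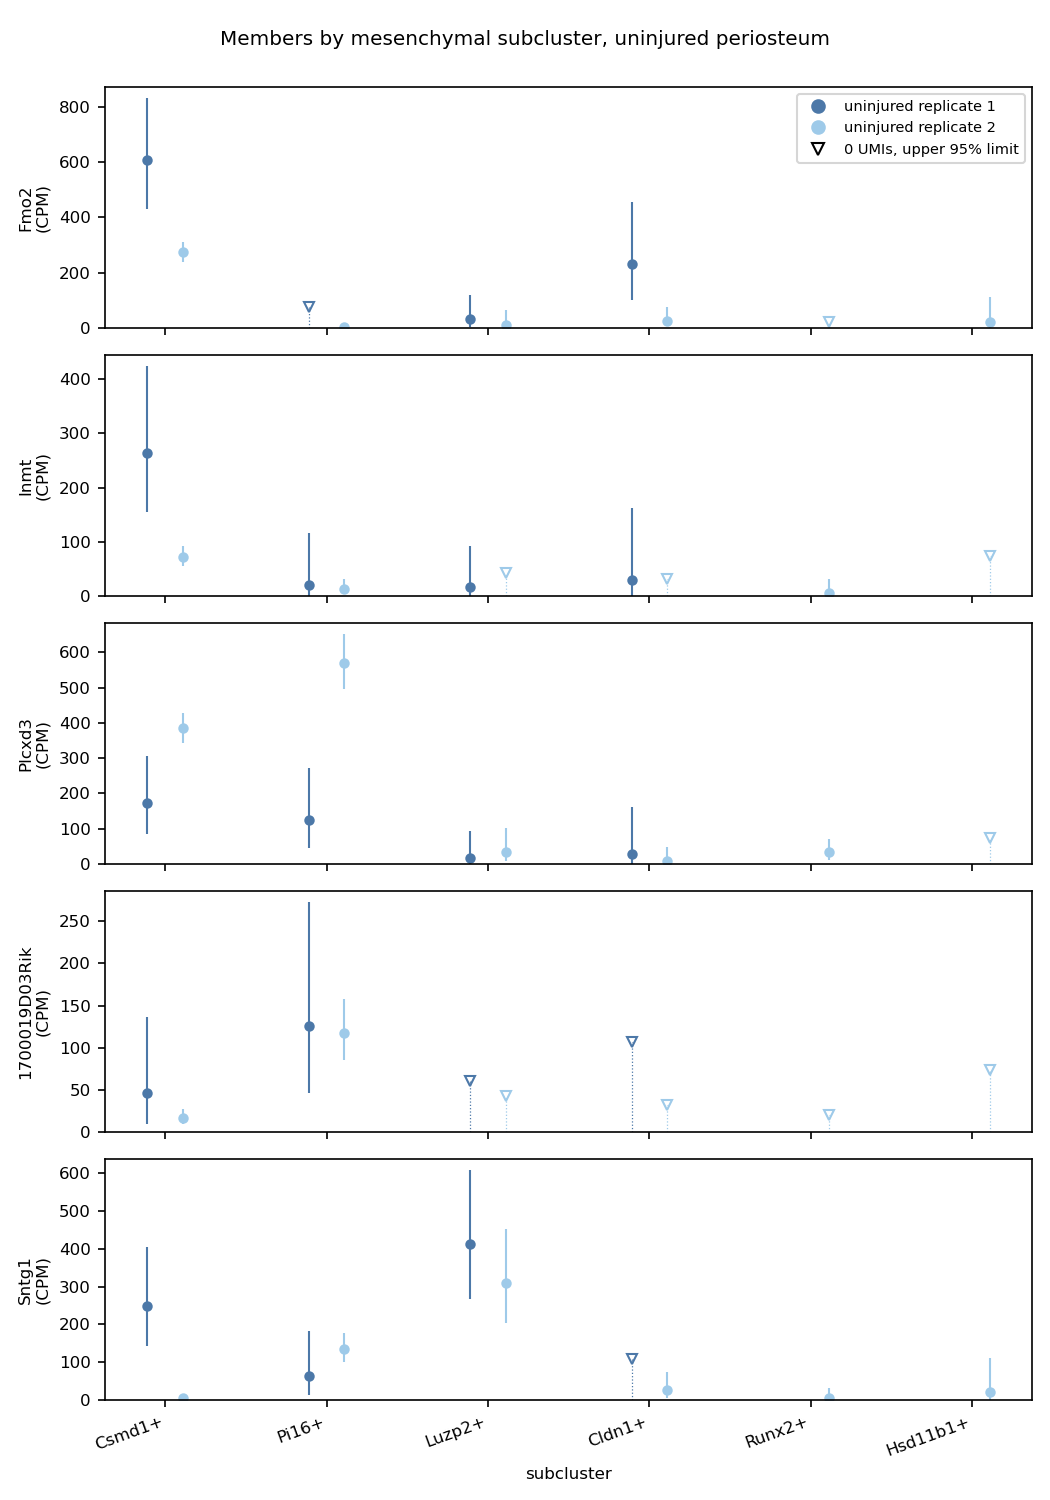
Level of each gene (CPM, vertical axis) in the 6 uninjured subclusters (horizontal axis), for each uninjured library with at least 10 nuclei; bars are exact 95% Poisson intervals and open triangles are upper limits at 0 UMIs. Fmo2 and Inmt stand highest in the Csmd1+ subcluster, 1700019D03Rik in the Pi16+ subcluster (125 and 118 CPM), and Sntg1 in the Luzp2+ subcluster (412 and 311 CPM).

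The same counts were also read by single nuclei, which restates the split and adds no support to it. Among 275 uninjured SSPC- and fibroblast-like nuclei, 78 had a Plcxd3 UMI, 51 Fmo2, 30 1700019D03Rik, 28 Inmt and 18 Sntg1. Of the 30 nuclei with 1700019D03Rik, 20 also had Plcxd3 (66.7%, and 25.6% of the nuclei with Plcxd3), and 1 also had Fmo2. That 1 was among 5 such nuclei of replicate 1, and none of the 25 of replicate 2 had Fmo2. Fmo2 and Inmt were found together in 12 nuclei, 42.9% of those with Inmt and 23.5% of those with Fmo2. Plcxd3 was found with Fmo2 in 18 nuclei, 35.3% of the Fmo2 nuclei. Deeper nuclei are more likely to show a pair, and these counts were neither corrected for depth nor set against chance.

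Across the fracture time course, the stromal level of Fmo2 was 292 CPM [207 to 401] and 167 CPM [145 to 191] in the uninjured replicates, from 38 and 209 UMIs. At day 3 it was 0 UMIs in both replicates, at least 28.9-fold and 140-fold lower than the uninjured mean of 229 CPM when set at a floor of 3 UMIs per library. At day 5 it had 5 UMIs (0.926 CPM) in 1069 stromal nuclei and at day 7 it had 1 UMI (0.624 CPM) in 795. These are 0.404% [0.131 to 0.943] and 0.272% [0.00689 to 1.52] of the uninjured mean, and no injured library overlaps the uninjured range.

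Inmt, the methyltransferase, had 19 and 67 stromal UMIs before injury, 146 CPM [87.9 to 228] and 53.4 CPM [41.4 to 67.8]. After fracture 1 Inmt UMI was counted in the stroma of all 4 injured libraries together, in day 3 replicate 2 (0.545 CPM). Days 5 and 7 were at 0, at least 179-fold and 53.3-fold lower than the uninjured mean of 99.7 CPM, and the counts allow up to 0.685% and 2.31% of that mean.

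Plcxd3 had 131 and 422 CPM in the uninjured stroma, from 17 and 530 UMIs, and no UMI in day 3 replicate 1, at least 34.8-fold lower than the mean of 277 CPM. It had 4 UMIs (2.18 CPM) in day 3 replicate 2, 10 UMIs (1.85 CPM) at day 5 and 3 UMIs (1.87 CPM) at day 7. Days 5 and 7 were thus at 0.670% [0.321 to 1.23] and 0.677% [0.140 to 1.98] of the uninjured mean, about the level of day 3 replicate 2. Against uninjured replicate 1 alone, the lower of the pair, the shares were 1.42% and 1.43%.

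1700019D03Rik had 69.2 and 44.6 CPM in the uninjured stroma, from 9 and 56 UMIs. It was at 0 in day 3 replicate 1 (at least 7.16-fold lower than the mean of 56.9 CPM) and at 1 UMI (0.545 CPM) in day 3 replicate 2. At day 5 it had 11 UMIs (2.04 CPM), 3.58% [1.79 to 6.41] of the uninjured mean, spread over IIFC-like (5 UMIs), osteoblast-like (3), SSPC-like (2) and chondrocyte-like nuclei (1). At day 7 it was again at 0, at least 30.4-fold lower.

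Sntg1 had the highest share of its uninjured level at days 5 and 7. Its uninjured stromal levels were 154 CPM [93.9 to 237] and 45.4 CPM [34.4 to 58.9], and the day 3 replicates had 1 and 4 UMIs (2.65 and 2.18 CPM). At day 5 it had 53 UMIs in 42 nuclei, 9.82 CPM [7.35 to 12.8], and at day 7 it had 31 UMIs in 24 nuclei, 19.3 CPM [13.1 to 27.4]. These are 9.86% and 19.4% of the uninjured mean, and the counting intervals of both days lie below those of both uninjured replicates. Those intervals do not cover uneven counts between nuclei. In uninjured replicate 1 a single nucleus gave 12 stromal Sntg1 UMIs, and in replicate 2 a single nucleus gave 31, so the uninjured levels rest partly on single nuclei. The share depends on the uninjured library, and at day 7 was 12.6% of replicate 1 and 42.6% of replicate 2. Days 5 and 7 have 1 library each and were described without a test. The matrix headers name Cell Ranger 6.0.0 for uninjured replicate 1 and days 5 and 7, and 7.1.0 for the other libraries. The step from day 3 to days 5 and 7 thus cannot be told apart from the software version.

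**Figure D3:**
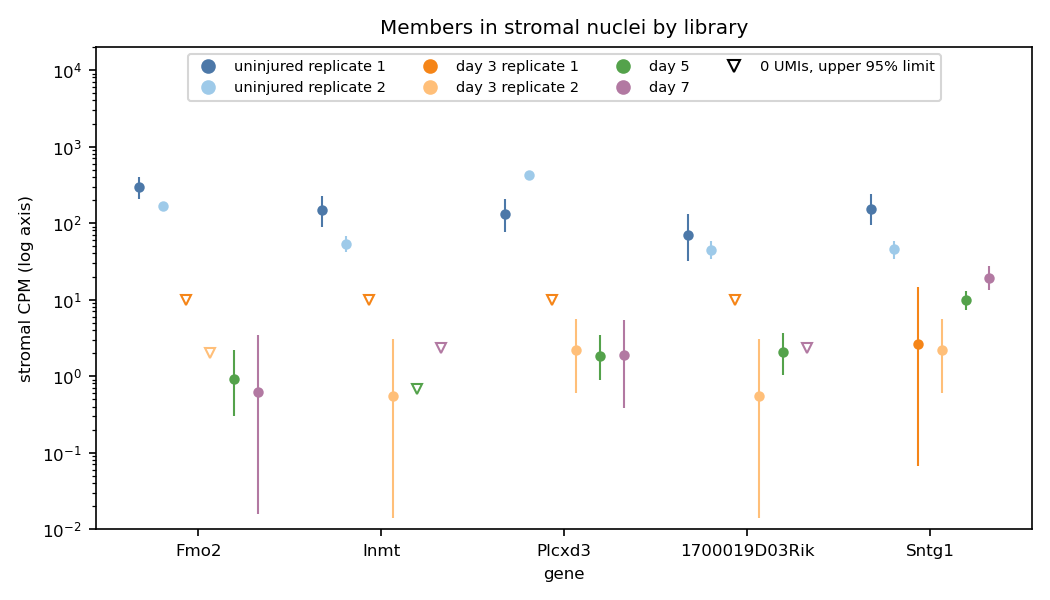
Stromal level of each gene in each of the 6 libraries (CPM, log axis); points are sums over all stromal nuclei of a library, bars are exact 95% Poisson intervals and open triangles are upper limits where no UMI was counted. For each gene both uninjured libraries lie above the 4 injured libraries, and Sntg1 at day 5 (9.82 CPM) and day 7 (19.3 CPM) lies nearest to them.

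In the test of day 3 against uninjured stroma over all genes (edgeR on UMIs summed per library), 5.28% of the 9256 genes tested were called lower and 3.96% higher. All 5 genes passed the filter on low counts, which they did through the uninjured libraries. Their fitted log2 fold changes were -10.74 for Fmo2 (SE 0.89), -7.46 for Plcxd3 (SE 0.76), -7.42 for Inmt (SE 0.99), -6.67 for 1700019D03Rik (SE 0.94) and -5.33 for Sntg1 (SE 0.87). They describe the choice of the genes and are no evidence beyond it.

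At the level of nuclei, 29 of 88 (33.0%) and 117 of 283 (41.3%) uninjured stromal nuclei had a UMI of at least 1 of the 5 genes, compared with 1 of 113 and 9 of 269 at day 3, 61 of 1069 (5.71%) at day 5 and 28 of 795 (3.52%) at day 7. Median depths differed (1013.5 and 2692 UMIs before injury, 2355 and 5198 in the day 3 replicates, 3882 at day 5 and 1327 at day 7). With every nucleus thinned to 500 UMIs the shares were 21.6% and 18.7% before injury, 0.885% and 1.12% at day 3, 0.937% [0.450 to 1.72] at day 5 and 1.27% [0.609 to 2.32] at day 7. At equal depth the uninjured libraries still lay above the injured ones, and days 5 and 7 lay within the interval of day 3 replicate 2 (0.231 to 3.22%).

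The mix of stromal populations changed with time, so each gene was also read within its own population. Fibroblast-like nuclei were still found after fracture, 53 and 128 at day 3, with 239 at day 5 and then 130 at day 7. At the uninjured mean level the day 5 fibroblast-like nuclei would hold 522 Fmo2 UMIs and 204 Inmt UMIs, and 1 and 0 were counted. At day 7 the same reckoning gives 127 Fmo2, 49.6 Inmt and 99.1 Plcxd3 UMIs, against 0, 0 and 1 counted. For 1700019D03Rik the fibroblast-like nuclei of the 4 injured libraries would hold 8.70, 44.9, 63.8 and 15.5 UMIs, and none was counted. Without integration there was no fibroblast-like class, as 66 and 217 uninjured nuclei fell in an SSPC-like class and most injured stromal nuclei in an IIFC-like one (135 and 341 in the day 3 replicates, 900 at day 5, 599 at day 7), so these values compare nuclei that were joined by integration. The summed level of the 7 fibroblast markers in the stroma was itself lower after fracture (7148 and 10379 CPM before injury, 2161 and 2425 CPM at day 3, 1763 CPM at day 5, 1123 CPM at day 7), and its part in the result was not tested.

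SSPC-like nuclei were few after fracture, 8 and 9 in the day 3 replicates, then 50 at day 5 and 60 at day 7. At day 5, 66.8 Plcxd3 UMIs would be present at the uninjured mean and none was counted, and at day 7 the values were 26.1 and 1. For 1700019D03Rik 19.4 UMIs would be present at day 5 and 2 were counted, both in 1 nucleus, and at day 7 there were none against 7.57. Sntg1 was at 65.1 CPM [21.2 to 152] in the SSPC-like nuclei of day 7, from 5 UMIs in 3 nuclei, with an interval that includes both uninjured values (50.4 and 143 CPM). At day 5 Sntg1 was lower, at 1 UMI against 18.99 at the uninjured mean, 5.27% [0.133 to 29.3]. The class itself depends on the clustering, since without integration it held no nuclei at day 3, 11 at day 5 and 2 at day 7, and under looser limits on nuclei no injured ones. Its marker score (how far its markers lay, on the log2 scale and on average, above the median of all clusters) was 5.19 and 4.87 before injury, 2.66 at day 5 and 2.10 at day 7.

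Within the stroma, most Sntg1 UMIs of days 5 and 7 lay in a population that the uninjured periosteum hardly contained. Chondrocyte-like nuclei had 28.6 CPM [18.99 to 41.3] at day 5 (28 UMIs in 18 of 169 nuclei) and 32.9 CPM [19.8 to 51.4] at day 7 (19 UMIs in 14 of 248 nuclei). They gave 52.8% and 61.3% of the stromal Sntg1 UMIs and were 15.8% and 31.2% of the stromal nuclei. The other stromal populations were lower at day 5, with 6.59 CPM in IIFC-like and 9.52 CPM in osteoblast-like nuclei, which is close to the 6.35 CPM of endothelial-like and 5.67 CPM of immune-like nuclei of that library. At day 7 few counts stood behind the comparison. SSPC-like nuclei had 65.1 CPM, osteoblast-like nuclei 42.5 CPM, pericyte/SMC-like nuclei 44.9 CPM and endothelial-like nuclei 7.89 CPM, from 5, 3, 2 and 1 UMIs. Barcodes outside the limits on nuclei had 17.0 CPM of Sntg1 at day 7, close to the stromal 19.3 CPM. With looser limits 2141 day 7 nuclei lay in clusters that could not be named. Unnamed clusters of that setting included ones led by the neural genes Dcc and Rmst. The part of such nuclei or of free RNA in the 17.0 CPM was not tested. In the nerve sheath-like nuclei, where Sntg1 was highest before injury, day 5 had 138 CPM [68.9 to 247], 10 of the 11 UMIs in 1 of 25 nuclei. Day 3 had 4 and 7 such nuclei with no Sntg1 UMI and day 7 had 9 with 1, too few to measure it.

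**Figure D4:**
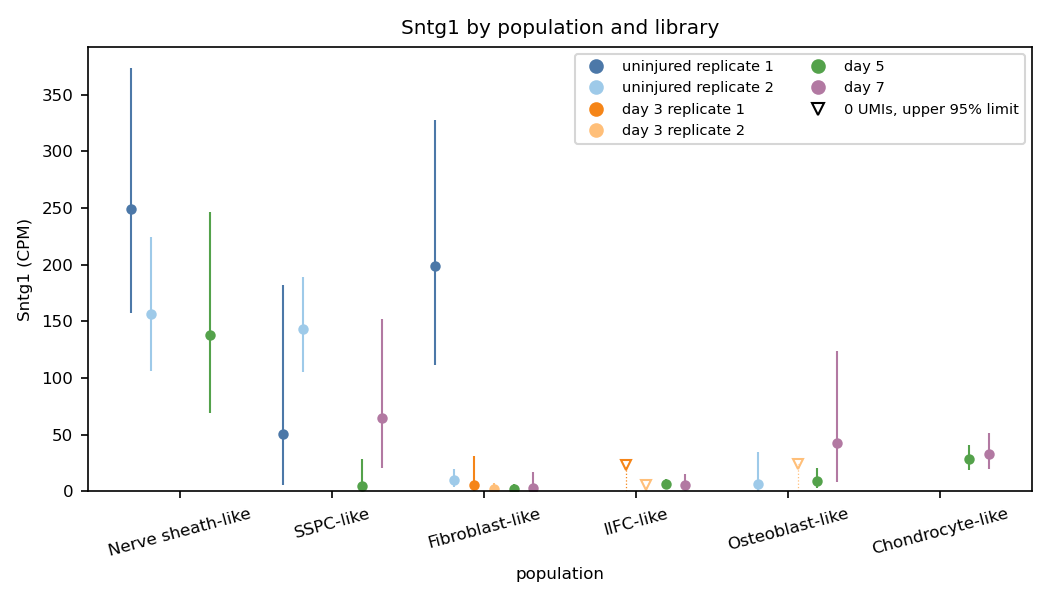
Sntg1 level (CPM, vertical axis) in 6 populations (horizontal axis) for every library with at least 20 nuclei of that population; bars are exact 95% Poisson intervals and open triangles are upper limits at 0 UMIs. The chondrocyte-like nuclei of days 5 and 7 sit at 28.6 and 32.9 CPM, below the uninjured nerve sheath-like nuclei at 249 and 157 CPM.

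The next comparison asked whether Fmo2 was also lower at day 3 in endothelial-like nuclei, which had no part in the choice of the gene. It had 601 and 468 CPM before injury, 21.3 CPM [2.58 to 77.0] and 35.2 CPM [20.5 to 56.4] at day 3 (2 UMIs in 40 nuclei and 17 UMIs in 64), 25.4 CPM [15.5 to 39.2] at day 5 (20 UMIs in 238 nuclei) and 7.89 CPM [0.200 to 44.0] at day 7 (1 UMI in 79). Every injured library lay below both uninjured libraries. Fmo2 fell at day 3 by edgeR's quasi-likelihood test, with a log2 fold change of -4.21 (SE 0.37) and a Benjamini-Hochberg adjusted p of 0.0123, and each day 3 library lay below each uninjured library. In this test 1.67% of 6772 genes were called lower and 1.49% higher, and no other member passed the filter on low counts. The adjusted p was 0.369 without uninjured replicate 2 and 0.343 without day 3 replicate 1 (edgeR), with log2 fold changes of -4.44 and -4.14, so the call rests on these libraries while the size does not. Days 5 and 7 stood at 4.75% and 1.48% of the uninjured mean, compared with 3.98% and 6.59% at day 3. The summed level of the 7 fibroblast markers in the endothelial-like nuclei went from 138 and 365 CPM before injury to 607 and 636 CPM at day 3, and that of the 7 immune markers from 4.75 and 25.4 CPM to 170 and 317 CPM. Their part in the result was not tested.

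Within the endothelium, Fmo2 was highest in the cluster led by Vwf, at 850 CPM [735 to 978] and 754 CPM [686 to 828], from 634 UMIs in 109 of 154 nuclei. Clusters are called here by 1 of their leading genes, which need not be the first. The Rasip1 cluster followed at 502 and 575 CPM. It was shallow, with a median of 791 UMIs over all libraries against 3586 in the Vwf cluster. Then came the Zfp366 cluster (464 and 156 CPM) and the cluster of the lymphatic gene Prox1 (374 and 185 CPM). The cluster called by Bmx, a gene of arterial endothelium, was lowest at 44.7 and 112 CPM. In the Vwf cluster Fmo2 had 39.6 and 85.0 CPM at day 3, the latter from 16 UMIs in 3 of 24 nuclei, 74.0 CPM at day 5 and 27.0 CPM at day 7. All endothelial-like nuclei together held 2 Fmo2 UMIs in day 3 replicate 1 and 1 at day 7. The 39.6 and 27.0 CPM thus rest on fewer UMIs than the floor of 3. The lower level was thus seen within the cluster that held most Fmo2. In that cluster alone, a comparison chosen after seeing the data, the log2 fold change was -3.46 (SE 0.42) with an edgeR adjusted p of 0.0569.

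**Figure D5:**
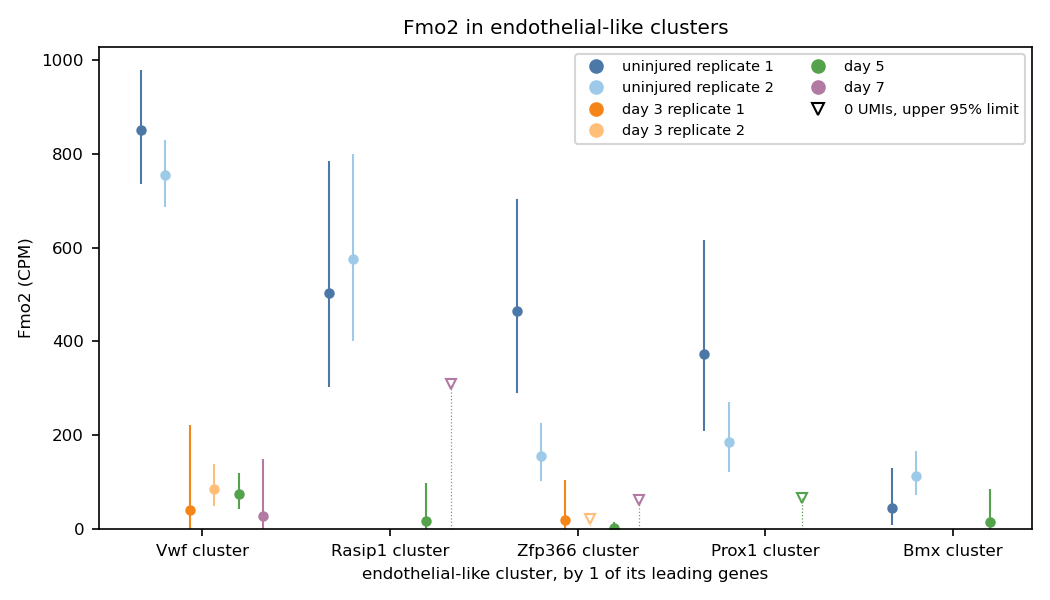
Fmo2 level (CPM, vertical axis) in 5 endothelial-like clusters, named by a leading gene (horizontal axis), for each library with at least 10 nuclei in the cluster; bars are exact 95% Poisson intervals and open triangles are upper limits at 0 UMIs. The uninjured Vwf cluster stands at 850 and 754 CPM, and its injured values are at most 85.0 CPM.

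Pericyte/SMC-like nuclei gave no information on the 5 genes, since none passed the filter on low counts there. Of 2705 genes tested, 0% were called lower and 0.0739% higher by edgeR (2 genes, with 354 at an unadjusted p under 0.05, and 6 genes called by DESeq2). The day 3 replicates had only 4 and 9 such nuclei, against 60 and 64 before injury, so the number of calls says little about their response.

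Genes related to the members were read in the same stromal test, from lists chosen with results of these data known. The flavin-containing monooxygenases moved with Fmo2, as both relatives that could be tested were lower at day 3 by edgeR, beside 5.28% of all genes tested. Fmo1 was at 223 and 151 CPM before injury, 15.9 and 10.9 CPM at day 3, 10.2 CPM at day 5 and 16.2 CPM at day 7, with a log2 fold change of -3.96 (SE 0.49, adjusted p 0.000813). Fmo5 had -3.10 (SE 0.68, adjusted p 0.0153), and Fmo4 was too low to be tested. Fmo1 also fell in the endothelial-like nuclei (-4.11, edgeR adjusted p 0.0139), a call that was lost there with uninjured replicate 2 or day 3 replicate 1 left out, and Fmo5 had -2.06 (adjusted p 0.247).

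The relatives of the other 4 members mostly did not pass the test, like most of the genes tested. None of 3 tested small-molecule methyltransferases was called (6 listed, median log2 fold change 0.15), and Nnmt, the nicotinamide N-methyltransferase, had 1.08 with an edgeR adjusted p of 0.460. Of 11 tested phosphatidylinositol phospholipases C (16 listed, median -0.09), only Plcl2, a catalytically inactive family member, was called, and it rose by 2.07 (SE 0.46, adjusted p 0.0151). Plcxd2, the closest listed relative of Plcxd3, had -0.05 (adjusted p 0.988), and Plcxd1 was too low to be tested. Of 13 tested syntrophins and dystrophin complex genes (15 listed, median -0.44) Sspn, sarcospan, was lower (-2.32, SE 0.59, adjusted p 0.0301), while the Sntg1 relative Sntg2 had -0.44 (adjusted p 0.802). Of 13 tested protein kinase A subunits and anchoring proteins (17 listed, median -0.01) Akap12 was lower (-1.88, SE 0.48, adjusted p 0.0300). The median over all genes tested was 0.02. Over all genes tested 5.28% were called lower and 3.96% higher, so calls this few do not set these lists apart from other genes.

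Genes known to mark fibroblasts of uninjured tissue fell alongside the members. All 14 tested of 15 listed were lower at day 3 by edgeR, with a median log2 fold change of -3.72, beside 5.28% of all genes called lower. The list was chosen with results of these data known. Pi16, Dpp4, Cd34, Ly6a, Sema3c, Col15a1, Abca8a and Lama2 also served to name the populations summed here. The count is therefore a description and no independent support. The 14 genes were Pi16, Dpp4, Cd34, Ly6a, Sema3c, Dpt, Col15a1, C7, Abca8a, Abca6, Scara5, Ebf2, Lama2 and Gsn, and Penk was too low to be tested. Pi16, a marker of the SSPCs, fell by 5.47 and Gsn, gelsolin, fell by 4.81 on the log2 scale. C7, a complement component, was closest to the members, at 561 and 2537 CPM before injury, 0 and 0.545 CPM at day 3, 3.15 CPM at day 5 and 0 at day 7. At day 7 the median level of the 15 genes was 3.39% of the uninjured mean, and 13 of the 15 were below 25%. Fmo1 and Fmo5 were similarly low at day 7, at 8.67% and 19.4% of the uninjured mean. By comparison, the median was 92.0% for the dystrophin complex genes, 79.4% for the protein kinase A genes, 89.8% for the phospholipases C and 78.9% for the methyltransferases.

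The genes whose pattern was most like each member were found by Pearson's r of log2(CPM + 10) over 47 sums of a population in a library, among 9715 genes. The sums share libraries and depth, so r is a description. Fmo2 was closest to Chrm3, a muscarinic acetylcholine receptor (r = 0.844), Wipf3 (0.804) and Lepr, the leptin receptor (0.778). Like Fmo2, Chrm3 was highest in the uninjured endothelial-like nuclei (1155 and 775 CPM) and next in the fibroblast-like nuclei (517 and 345 CPM). Inmt was closest to Plcxd3 (0.779), C7 (0.772) and Ppl (0.745), and Plcxd3 to C7 (0.911), Myoc (0.893) and Clec3b (0.888). 1700019D03Rik was closest to Duox1, a dual oxidase (0.835), Engase (0.830) and the ligand gene Wnt2 (0.813), and Duox1 had 177 and 84.6 CPM in uninjured SSPC-like nuclei against 53.04 and 16.7 CPM in fibroblast-like nuclei. For Sntg1 the values were lower, with Unc13c, a gene of synaptic vesicle priming, at 0.766, the adrenergic receptor gene Adra1b at 0.746 and 9630002D21Rik at 0.721. Unc13c had 281 and 612 CPM in the uninjured nerve sheath-like nuclei, above its 159 and 63.8 CPM in fibroblast-like nuclei.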

How the data were processed

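Nuclei of the mouse tibial periosteum were measured in 6 libraries, 2 uninjured, 2 at day 3 and 1 each at days 5 and 7 after fracture, grouped by the labels. The authors deposited raw UMI counts per gene and barcode, from intronic and exonic reads against mm10. The counts were made with Cell Ranger 6.0.0 (uninjured replicate 1, day 5 and day 7) or 7.1.0 (the others), by the matrix headers. These counts were not normalized.

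From the counts, nuclei were kept that had 200 to 5000 genes, less than 2.0% of UMIs from mitochondrial genes and less than 1.5% from ribosomal protein genes, myogenic clusters were removed in 2 passes, and libraries were integrated and clustered with Seurat 5.3.0 (resolution 1.3; subclusters 0.2 with 10 components). Classes of at least 20 nuclei in both uninjured libraries were ranked. UMIs were summed per library and population, and day 3 was compared with uninjured by edgeR 4.0.16 (filterByExpr, TMM, quasi-likelihood F test) at a Benjamini-Hochberg adjusted p of 0.05, over all genes listed in every library. The test was tried first on simulated counts. Days 5 and 7 were described only. A level of 0 was set at a floor of 3 UMIs per library to give a fold. Shares with a UMI used nuclei thinned to 500 UMIs. Genes most alike had at least 50 uninjured UMIs, and sums at least 20 nuclei and 20000 UMIs.

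The members and the gene lists were chosen with earlier results of these data known. Named genes were the members, the listed genes called in a test and single relatives of a member. Alternatives were DESeq2 1.42.0, no filter on low counts, no TMM, all nuclei, no integration, resolution 0.8, limits of 5.0% mitochondrial and no ribosomal UMIs, doublets removed, thinning to 1000 UMIs and each library left out. R 4.3.3, Python 3.11.15, scanpy 1.11.5, numpy 2.4.6, scipy 1.17.1 and pandas 2.3.3 were used. Comparisons computed by the study on its own clusters were not used here.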

Additional observations from a re-analysis of the deposited data

How the results depend on the processing

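Fmo2, Inmt, Plcxd3, 1700019D03Rik and Sntg1 had a lower fitted stromal level at day 3 in all 16 settings, the reported one included (15 for 1700019D03Rik, which was not tested without uninjured replicate 2), a direction that the choice of the genes fixes. Fmo2 in endothelial-like nuclei ranged from -4.63 to -4.02 on the log2 scale with a library left out, and in the Vwf-led cluster alone it was -3.46. Genes called in the stroma numbered 856, but 559 with DESeq2, 561 in SSPC- and fibroblast-like nuclei alone, 1131 without the filter on low counts, 1207 over all nuclei and 202 to 852 with a library left out, the lowest without uninjured replicate 2. In endothelial-like nuclei 214 genes were called, 730 without the filter, 1 in the Vwf-led cluster and 0 to 387 with a library left out, with 0 by edgeR without uninjured replicate 2 or day 3 replicate 1 (790 and 1018 at an unadjusted p under 0.05). In pericyte/SMC-like nuclei 2 were called, 6 with DESeq2, 48 without the filter, 11 at resolution 0.8 and 6 to 114 with a library left out. A group left with 1 library was assumed to vary like the other. Over all nuclei in place of the stroma, the percent of the uninjured level at day 5 was 1.27 for Fmo2, 2.12 for Plcxd3, 12.1 for 1700019D03Rik and 19.8 for Sntg1, and at day 7 it was 2.30 for Plcxd3, 7.06 for 1700019D03Rik (2 UMIs, in an immune-like and a pericyte/SMC-like nucleus) and 38.3 for Sntg1. In SSPC- and fibroblast-like nuclei alone Sntg1 was at 2.64% at day 5 and Fmo2 at 0 at day 7, as Fmo2 also was with no integration. With either uninjured library left out, Plcxd3 ranged from 0.439 to 1.42% (day 5), and Sntg1 from 6.39 to 21.6% (day 5) and 12.6 to 42.6% (day 7). With no integration, 1700019D03Rik in SSPC-like nuclei was at 67.3 CPM and no fibroblast-like class remained for Inmt, which was highest in SSPC-like nuclei (112 CPM). At resolution 0.8 the cluster that was highest in Sntg1 (158 CPM) could not be named. Thinned to 1000 UMIs, 26.5% of endothelial-like nuclei held Fmo2 and 5.26% of SSPC-like nuclei 1700019D03Rik. The cause of these shifts was not tested. The Vwf-led cluster, the pair of SSPC- and fibroblast-like nuclei, the addition of the unnamed shallow nuclei or of tendon- and nerve sheath-like nuclei to the stroma, and the endothelial class without integration were chosen after seeing the data. No paired analysis was made. The labels give the libraries no replicate numbers, and neither they nor the methods link an uninjured library to an injured one. Counts limit the low end: 3 UMIs in the stroma equal 23.1 CPM in uninjured replicate 1 and 7.95 CPM in day 3 replicate 1, but 0.556 CPM at day 5.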

Other observations

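Barcodes outside the limits on nuclei carried some of the members, and the cells they came from were not identified. With looser limits, clusters that could not be named held 2141 day 7 nuclei. Some unnamed clusters of that setting were led by the neural genes Dcc and Rmst, and their part in the values below was not tested. At day 7, 26 of the 30 Plcxd3 UMIs of the library lay in the 2097 barcodes that failed the limits, 1 UMI in each of 26 barcodes, at 14.2 CPM [9.31 to 20.9] compared with 1.87 CPM in the stromal nuclei. Sntg1 had 31 UMIs (17.0 CPM) in the same barcodes, 1 in each of 31. Fmo2 and Inmt had none there, and 1700019D03Rik had 1. The 249 nuclei removed as myogenic at day 7 held 2 Sntg1 UMIs and none of the other 4 genes. These barcodes enter the Sntg1 level given for them above, the totals and medians over all barcodes, and the setting with looser limits. They enter no other value above.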
